A study of Ovis aries with 14 samples.

Results

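Blood vessels of the ovary are built and remodelled by a small set of secreted factors and receptors, and 10 of their genes are described here: VEGFA, VEGFC, ANGPT1, ANGPT2 and ADM, which encode ligands, FLT1, KDR, FLT4 and TEK, which encode receptors, and PLVAP, which encodes a structural protein of endothelium. They were chosen by name, and all 10 were listed in each of the 3 deposited tables, which together list 17323 genes. VEGFA binds FLT1 and KDR on endothelial cells and drives vessel growth, and FLT1 also binds VEGFA as a decoy. VEGFC acts mainly through FLT4, the receptor of lymphatic endothelium. ANGPT1 activates the endothelial receptor TEK and steadies vessels, while ANGPT2 competes with it and is made where vessels are being remodelled. ADM is a vasodilator peptide induced by hypoxia, and PLVAP forms the diaphragms of fenestrated capillaries. In the ovary, vessels enter the thecal layer of growing follicles and grow fast into the corpus luteum after ovulation, while the granulosa layer has none before ovulation.

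RNA from whole frozen ovaries of wild type Suffolk sheep was sequenced in 14 samples. The groups were 3 testosterone and 3 control fetuses at gestational day 90, and 4 testosterone and 4 control adults at 2 years, where the series text counts 3 adult controls. Mothers of the testosterone groups received testosterone propionate in cottonseed oil by intramuscular injection, 2 times a week from day 30 to day 90 of gestation, at a dose the labels write both as 100 mg and as 1.2 mg/kg. The labels do not say what the control mothers received, nor how the samples relate to mothers or litters, so each p-value reflects the spread of these samples alone, which may be technical. The fetal samples were taken on the day the treatment ended, and the adult samples long after it.

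The deposited values are each gene's reads after division by the library's size factor, called normalized reads here. The fetal table holds all 6 fetal libraries. The first adult table holds testosterone 4, 5 and 6 and control 4, 5 and 6, and the second holds testosterone 5, 6 and 7 and control 4, 6 and 7. The 2 adult tables share 4 libraries and are not independent. Libraries held between 22577382 and 33417500 reads, counted after recovery from the deposited values. Adult values are given for all 8 libraries, joined and scaled together from the recovered reads, and tests were run within each table. Gene lists were looked up as a description of the tissue. The 18 listed endothelial markers had no library at 0, which does not single out ovary. Of 12 germ cell markers, 7 were listed in the fetal table and 6 were listed for the joined adult libraries, 1 of them at 0 in a library. The adult libraries were unlike each other: OXT, made by luteal cells in sheep, stood at 110586 and 61705 in testosterone 4 and 7 and 94884 in control 6, and between 22.3 and 80.2 in the other 5. Control 4 stood apart in MYH11, a smooth muscle myosin, with 278273 against 21146 to 111582 in the other adults. In bulk ovary, fewer endothelial cells and less RNA per endothelial cell cannot be told apart.

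In the fetal ovary ADM and FLT1 had lower values in every testosterone library than in any control, and the other 8 genes overlapped between the groups. None of the 10 passed the threshold over all genes with limma, a linear model on log2 values with Benjamini-Hochberg adjustment. At an unadjusted p under 0.05 limma found 2 of the 10, ADM and FLT1, and 1611 of all 16513 genes (9.76%). ADM passed with DESeq2, and 0 of the 10 with edgeR. Of all fetal genes limma called 0.0182%, edgeR 0.0242% and DESeq2 1.59%, with 0.509% called lower by DESeq2. Groups that did not overlap were found for 16.3% of genes, and 7.46% had testosterone lower. The 10 genes had 5 positive and 5 negative log2 changes, with a median of -0.02, and the median of all genes was also -0.02.

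ADM had 1114, 1319.9 and 1073 normalized reads in testosterone fetuses 1, 2 and 3, against 1869, 1757 and 1883 in control fetuses 1, 2 and 3. The highest testosterone library lay far under the lowest control, and the controls were close to each other. The log2 change was -0.66 (SE 0.11, limma adjusted p = 0.137, n = 3 per group). With DESeq2 on the recovered reads the adjusted p was 5.8e-05, and over all other alternatives it ran from 0.129 to 0.443. Leaving out any 1 library kept the log2 change between -0.75 and -0.60.

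The receptor for ADM is CALCRL joined to RAMP2 or RAMP3, and these genes, named for their role, did not separate the groups. CALCRL averaged 531 ± 129.8 in testosterone fetuses and 662 ± 47.1 in control fetuses (SD, n = 3 each), a log2 change of -0.35 (limma adjusted p = 0.592). RAMP2 averaged 2334 ± 258 and RAMP3 32.7 ± 5.21 in testosterone fetuses, against 2277 ± 168 and 34.9 ± 7.68 in control fetuses. HIF1A and EPAS1 encode the hypoxia-inducible factors. HIF1A had a log2 change of -0.01 (SE 0.12), and EPAS1 one of -0.38 (SE 0.21, limma adjusted p = 0.596). Of 20 listed hypoxia-induced genes other than ADM and VEGFA, 0 passed with either tool, with 9 positive and 11 negative log2 changes and a median of -0.05. Those of smallest p were the demethylase KDM3A (-0.23) and EGLN3 (-0.35), a prolyl hydroxylase that marks HIF for breakdown. KDM3A had 1626 to 1699 in testosterone fetuses against 1735 to 2057 in control fetuses, and EGLN3 154 to 176 in testosterone fetuses against 197 to 229 in control fetuses, so neither overlapped (limma adjusted p = 0.507 and 0.525). Of the 20 genes, 2 were separated with testosterone lower and 1 with it higher. Over all genes the shares were 7.46% lower and 8.88% higher, so the list was near the background. CITED2, which competes with HIF for its coactivators, had 999.9 to 1448 in testosterone fetuses against 739.7 to 1037 in control fetuses, a log2 change of 0.47 (limma adjusted p = 0.452).

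FLT1 had 1389, 1219 and 1398 in testosterone fetuses 1, 2 and 3, against 1559, 1800.2 and 1952 in control fetuses 1, 2 and 3. The groups did not overlap, and the gap between testosterone 3 and control 1 was narrow. The log2 change was -0.40 (SE 0.11, limma adjusted p = 0.334), and the DESeq2 adjusted p was 0.0841, the lowest of all alternatives, which reached 0.666. In the authors' deposited table ADM had a log2 change of -0.65 and an adjusted p of 5.9e-05, and FLT1 had -0.41 and 0.0842.

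The endothelial markers overlapped between the groups. Summed over the 18 listed markers, the testosterone fetuses ran from 19292 to 27955, with a median of 24344, and the control fetuses from 19998 to 26028, with a median of 24836. The 18 markers had 7 positive and 11 negative log2 changes (median -0.03), and 0 passed. With the mean of this list as a covariate (a model chosen once results were known), ADM was at -0.65 and FLT1 at -0.41. This fit of 6 libraries does not tell what part endothelial content had in these values. The summed level of smooth muscle markers was higher, at 54374 to 79509 in testosterone fetuses against 38029 to 50116 in control fetuses. MYH11 held much of this sum, with 25022 to 35277 in testosterone fetuses against 15127 to 20053 in control fetuses. All 9 markers had positive log2 changes, and the groups were separated for 2, where 8.88% of all genes were separated with testosterone higher. DESeq2 called 3 of these 9, MYH11, DES and TAGLN, where it called 1.59% of all genes. Limma called 0 of the 9 (adjusted p = 0.237, 0.291 and 0.353 for these 3). The summed level of 9 follicle markers was 4627 to 4804 in testosterone fetuses against 3951 to 4528 in control fetuses, but their mean log2 score overlapped, at -0.09 to 0.09 in testosterone fetuses against -0.15 to 0.21 in control fetuses. Of these 9 markers 6 had positive and 3 negative log2 changes, with a median of 0.35. The groups were separated for 3 with testosterone higher and 1 with it lower, where 16.3% of all genes were separated. At an unadjusted p under 0.05 limma found 4 of the 9, and 9.76% of all genes. DESeq2 called CYP17A1 of this list lower. The part of these cell types in the ADM and FLT1 values was not tested. For the other lists the median log2 change was -0.14 for 7 germ cell markers, -0.06 for 10 luteal, -0.21 for 12 macrophage and -0.01 for 3 erythroid markers. All 7 germ cell markers had negative log2 changes, as had 6 of the luteal, 9 of the macrophage and 2 of the erythroid markers. The signs of genes in the same libraries are not independent. DESeq2 called 1 of these genes, the luteal CYP11A1, lower.

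**Figure D1:**
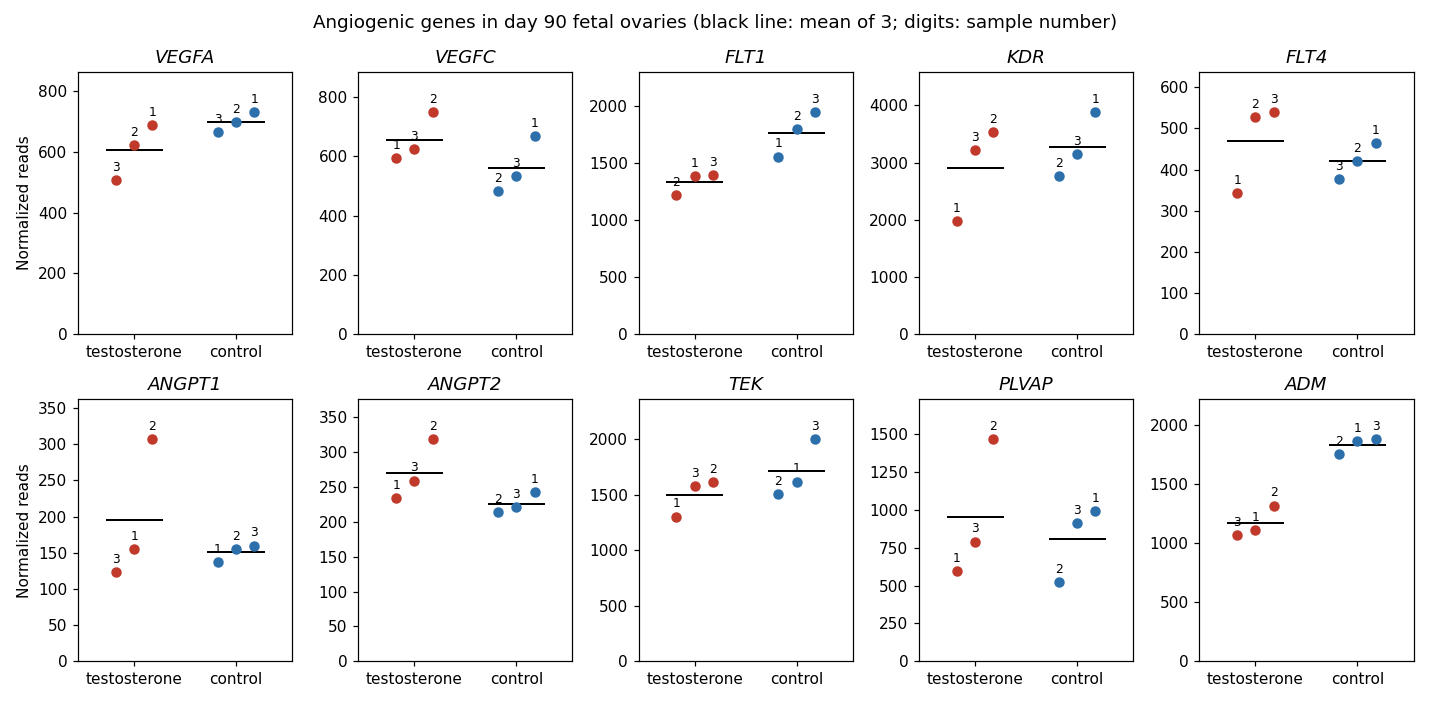
Normalized reads of the 10 genes in each day 90 fetal ovary, testosterone left and control right, on axes that start at 0; points are single libraries with their sample number, and the black line is the mean of 3. ADM and FLT1 have no testosterone library as high as the lowest control (1757 and 1559), and PLVAP and ANGPT1 are highest in testosterone 2.

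The other VEGF genes overlapped in the fetal groups. VEGFA had 687, 623 and 508 in testosterone fetuses 1, 2 and 3, against 731, 698 and 664 in control fetuses 1, 2 and 3. Testosterone 1 lay among the controls, and the log2 change was -0.21 (SE 0.14, limma adjusted p = 0.641). VEGFC averaged 656 ± 82.7 in testosterone fetuses and 561 ± 95.8 in control fetuses (log2 change 0.23, SE 0.16, limma adjusted p = 0.656).

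KDR, the main signalling receptor for VEGFA, had 1982, 3527 and 3219 in testosterone fetuses 1, 2 and 3, against 3886, 2762 and 3144 in control fetuses 1, 2 and 3. Testosterone 1 was the lowest of the 6 libraries, and the log2 change was -0.19 (SE 0.22) with it and 0.06 without it. FLT4 averaged 470.0 ± 111 in testosterone fetuses and 420.1 ± 43.5 in control fetuses (log2 change 0.14, SE 0.20). Testosterone 1 and control 2 were the 2 lowest libraries for KDR, PLVAP and the endothelial markers PECAM1 and CDH5, while FLT1 was next to highest in control 2. The ratio of KDR to FLT1 reads was 1.43, 2.89 and 2.30 in testosterone fetuses 1, 2 and 3, against 2.49, 1.53 and 1.61 in control fetuses 1, 2 and 3, so both groups held low and high values.

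Of the angiopoietin genes, ANGPT2 had 233, 318 and 259 in testosterone fetuses 1, 2 and 3, against 243, 213 and 221 in control fetuses 1, 2 and 3. ANGPT1 had 155, 307 and 124 in testosterone fetuses 1, 2 and 3, against 137, 155 and 159.9 in control fetuses 1, 2 and 3. Testosterone 2 was the highest library for both, and the log2 changes were 0.25 (SE 0.17) for ANGPT2 and 0.26 (SE 0.32) for ANGPT1. Without testosterone 2, ANGPT1 was at -0.12. The receptor TEK averaged 1501 ± 169.6 in testosterone fetuses and 1711 ± 258 in control fetuses (log2 change -0.19, SE 0.14).

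PLVAP was the most variable of the 10 genes among the fetuses. It had 593, 1466 and 790.3 in testosterone fetuses 1, 2 and 3, against 991, 520.5 and 909 in control fetuses 1, 2 and 3, a log2 change of 0.18 (SE 0.35). The sign turned without testosterone 2 (-0.18) or without control 2 (-0.11). Its SD over the 6 libraries was 0.54 on the log2 scale, larger than that of 93.9% of genes with a mean of at least 50.

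Among related genes, DESeq2 called 2 of 19 listed receptors and co-receptors, 1 in each direction, where it called 1.59% of all genes. PDGFRA, a receptor of stromal cells, averaged 10013 in testosterone fetuses and 7095 in control fetuses (DESeq2 adjusted p = 0.0139, limma 0.279). ACKR3, which scavenges the chemokine CXCL12, averaged 349 in testosterone fetuses and 549.6 in control fetuses (DESeq2 adjusted p = 0.0251, limma 0.290). Of 15 further ligands, 0 passed, with 9 positive log2 changes. The groups did not overlap for 3 of the ligands, 2 higher and 1 lower in testosterone fetuses, and for 4 of the receptors, 2 higher and 2 lower. Of all genes 16.3% were separated, 8.88% with testosterone higher and 7.46% with it lower. Among the separated genes, HGF had 59.8 to 144 in testosterone fetuses against 184 to 256 in control fetuses (log2 change -1.14, limma adjusted p = 0.333). CXCL12 had 795 to 1137 in testosterone fetuses against 532 to 774 in control fetuses (0.58, limma adjusted p = 0.417). PDGFRA and ACKR3 were separated too. NRP2, a co-receptor for VEGFC, and VEGFB were also separated and higher, with log2 changes of 0.31 and 0.18, and neither passed (limma adjusted p = 0.493 and 0.551). Of 15 angiogenesis inhibitors, DESeq2 called DCN, the proteoglycan decorin, higher (log2 change 0.39, DESeq2 adjusted p = 0.0366, limma 0.296). No gene of the pericyte, lymphatic or Notch and tip cell lists passed with either tool (9, 6 and 11 listed). Their median log2 changes were -0.21, 0.001 and -0.10.

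In the adult ovary, none of the 10 genes separated the groups, and none passed with limma, DESeq2 or edgeR in either table. At an unadjusted p under 0.05, 0 of the 10 were found with limma in either table, where it found 0.637% of all genes in the first and 0.486% in the second. DESeq2 found 2.09% and 1.89% of genes at that threshold, with 0 of the 10 in the first table and 1, PLVAP, in the second. EdgeR found 1.19% and 1.13%, with 0 of the 10 in either. Limma called 0.00631% of genes in the first table and 0.00623% in the second. DESeq2 called 0.0252% in the first and 0.0311% in the second, and edgeR 0.0% in both. Separated groups made up 3.57% of genes in the first table and 2.61% in the second, and 0 of the 10 genes were among them. Intervals were wide: the 95% interval of the log2 change in the first table ran from -3.64 to 1.90 for PLVAP and from -0.89 to 0.36 for VEGFC, the narrowest of the 10. The 2 tables gave medians of -0.27 and -0.18 over the 10 genes, against -0.01 and -0.01 over all genes. Without control 4 the medians over the 10 genes were -0.09 and -0.17. With the 8 libraries joined the median was -0.13, and 0.12 without control 4.

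**Figure D2:**
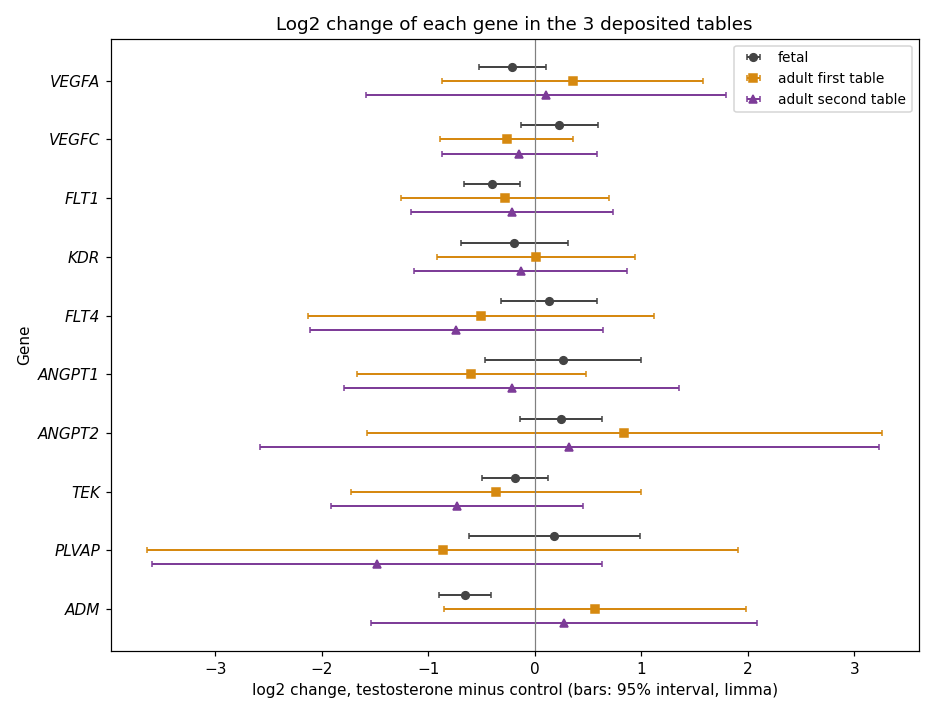
Log2 change of each gene, testosterone minus control, with its 95% interval from limma, in the fetal table (circles) and the first and second adult tables (squares and triangles). The fetal intervals of ADM (-0.90 to -0.41) and FLT1 (-0.66 to -0.14) lie under 0, and each adult interval spans 0.

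What varied in the adults was the library. The highest of 8 libraries exceeded the lowest by 16.5-fold for ANGPT2, 13.2-fold for PLVAP, 10.1-fold for ADM, 8.52-fold for VEGFA and 6.19-fold for FLT4. VEGFC varied least, between 455 and 776. On the log2 scale the SD was 1.65 for ANGPT2 and 1.54 for PLVAP, larger than those of 96.1% and 95.3% of genes with a mean of at least 50. The SD of VEGFC was 0.26, larger than that of 20.1%.

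ANGPT2 had 984, 6000.0, 11261 and 682 in testosterone adults 4, 5, 6 and 7, against 2572, 5298, 856 and 10738 in control adults 4, 5, 6 and 7. The 3 lowest libraries were the 3 with high OXT, and both groups held values near the lowest and near the highest. Of the markers of growing follicles, FSHR, the receptor for follicle-stimulating hormone, had 169.8, 620.1, 1020.1 and 97.5 in testosterone adults 4, 5, 6 and 7, and 4.72, 705, 521 and 1612 in control adults 4, 5, 6 and 7. The libraries with the 4 highest ANGPT2 values, testosterone 5 and 6 and control 5 and 7, were also the 4 highest by the mean of the follicle list (0.43, 1.79, 1.51 and 2.12 on the log2 scale around the mean of the libraries). The log2 change of ANGPT2 was 0.84 (SE 1.02) in the first table and 0.32 (SE 1.23) in the second. It was -0.37 with the 8 libraries joined, with the opposite sign.

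ANGPT1 had 127, 79.8, 70.9 and 151 in testosterone adults 4, 5, 6 and 7, against 211, 86.4, 141 and 45.1 in control adults 4, 5, 6 and 7. It was low where ANGPT2 was high, in testosterone 5 and 6 and control 5 and 7. The ratio of ANGPT2 to ANGPT1 reads was 7.76, 75.2, 159 and 4.52 in testosterone adults 4, 5, 6 and 7, against 12.2, 61.3, 6.08 and 238 in control adults 4, 5, 6 and 7. In the 6 fetuses the ratio stayed between 1.04 and 2.09. Since the genes differ in length, the ratio compares libraries and does not say which gene was more abundant.

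The receptor TEK had 1189.5, 1115, 712 and 720.2 in testosterone adults 4, 5, 6 and 7, against 3006, 615, 1063 and 830.4 in control adults 4, 5, 6 and 7. Control 4 stood far above the rest, and the others ran from 615 to 1189.5. The log2 change was -0.36 (SE 0.57) in the first table and -0.73 (SE 0.50) in the second. Without control 4 it was 0.26 in the first and -0.18 in the second, and without control 7 it was -1.11 in the second.

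VEGFA had 306, 459, 565 and 443 in testosterone adults 4, 5, 6 and 7, against 157, 534, 443 and 1338 in control adults 4, 5, 6 and 7. The controls held both the lowest and the highest value, and the testosterone libraries lay between them. ADM had 6571, 12259, 12508 and 9425 in testosterone adults 4, 5, 6 and 7, against 2664, 10057, 11466 and 26985 in control adults 4, 5, 6 and 7. Control 4 was again the lowest and control 7 the highest. With limma the log2 changes in the first and second table were 0.35 and 0.10 for VEGFA and 0.56 and 0.27 for ADM. Without control 4 all 4 turned negative, to -0.19 and -0.66 for VEGFA and -0.11 and -0.63 for ADM.

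VEGFA and ADM had the same shape over the adult libraries. Likeness was measured as the root mean square difference of log2 values, each gene centred on its mean over the 8 libraries, among 10935 named genes with a mean of at least 50. ADM was the gene nearest to VEGFA, and VEGFA the gene nearest to ADM, at a difference of 0.20, where the median gene lay 0.98 from ADM. The next nearest to ADM were CDK7 (0.28) and LRRC2 (0.31). Nearest to ANGPT2 were ASB9 (0.29), ETNK2 (0.38) and IGFBP2 (0.42), which binds insulin-like growth factors. Nearest to PLVAP were DUSP1 (0.38), an immediate early phosphatase gene, CCL21 (0.39), a chemokine of lymphatic endothelium, and PECAM1 (0.40), an endothelial adhesion molecule. The 8 libraries share depth and scaling, and nearness is a description of them.

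**Figure D3:**
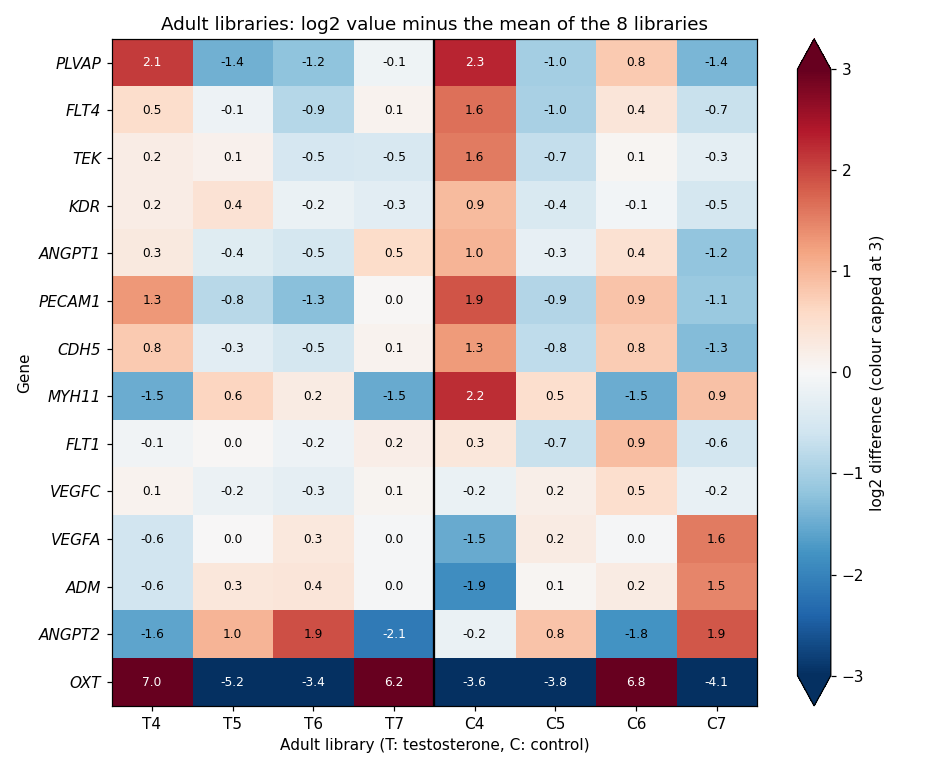
Log2 value of each gene minus its mean over the 8 adult libraries, testosterone (T4 to T7) left and control (C4 to C7) right, with OXT (luteal), MYH11 (smooth muscle), PECAM1 and CDH5 (endothelial) as descriptors of the libraries. Control 4 is high in 5 of the 10 genes and low in VEGFA and ADM, and ANGPT2 is low in the 3 libraries where OXT is high.

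Of the receptors and PLVAP, PLVAP, FLT4 and TEK varied less over the adult libraries when divided by the endothelial marker CDH5, and KDR and FLT1 did not. PLVAP/CDH5 spanned 5.37-fold, FLT4/CDH5 2.04-fold and TEK/CDH5 3.23-fold, against 13.2-fold, 6.19-fold and 4.89-fold for the genes alone. By contrast, KDR/CDH5 spanned 3.04-fold and FLT1/CDH5 3.20-fold, against 2.81-fold for KDR and 3.07-fold for FLT1 alone. PLVAP had 1458, 125, 146 and 313 in testosterone adults 4, 5, 6 and 7, against 1660.1, 169, 588 and 131 in control adults 4, 5, 6 and 7. The 4 highest libraries, control 4, testosterone 4, control 6 and testosterone 7, were in the same order for PECAM1, with 14189, 9393, 6999 and 3939. All of these but control 4 were the libraries with high OXT. The log2 change of PLVAP was -0.87 (SE 1.16) in the first table and -1.49 (SE 0.90) in the second. Without 1 library it ran from -2.01 (without testosterone 4) to -0.066 (without control 4) in the first table. In the second it ran from -2.46 (without control 7) to -0.63 (without control 4). With DESeq2 the log2 change in the second was -2.02, and its adjusted p was 1, the highest over the alternatives, which went down to 0.591.

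FLT4 had 1946, 1229.9, 751 and 1471 in testosterone adults 4, 5, 6 and 7, against 4257, 688, 1738 and 859 in control adults 4, 5, 6 and 7. Control 4 was more than any other library, and the lowest values were in control 5 and testosterone 6. The log2 change was -0.51 (SE 0.68) in the first table and -0.74 (SE 0.58) in the second. Without control 4 it was 0.15 in the first and -0.14 in the second, and without control 7 it was -1.30 in the second.

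KDR had 3908, 4495, 2889.7 and 2673 in testosterone adults 4, 5, 6 and 7, against 6439.8, 2442, 3126 and 2296 in control adults 4, 5, 6 and 7. The group means were 3492 ± 859 and 3576 ± 1943 for testosterone and control adults (SD, n = 4 each). FLT1 had 636, 701, 620.1 and 785 in testosterone adults 4, 5, 6 and 7, against 874, 429.7, 1318 and 468 in control adults 4, 5, 6 and 7. The testosterone libraries were close together and lay within the range of the controls. The log2 change of FLT1 was -0.28 (SE 0.41) in the first table and -0.22 (SE 0.40) in the second. VEGFC had 587, 482, 455 and 581 in testosterone adults 4, 5, 6 and 7, against 478, 613, 776 and 468 in control adults 4, 5, 6 and 7. Its values were mixed between the groups.

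**Figure D4:**
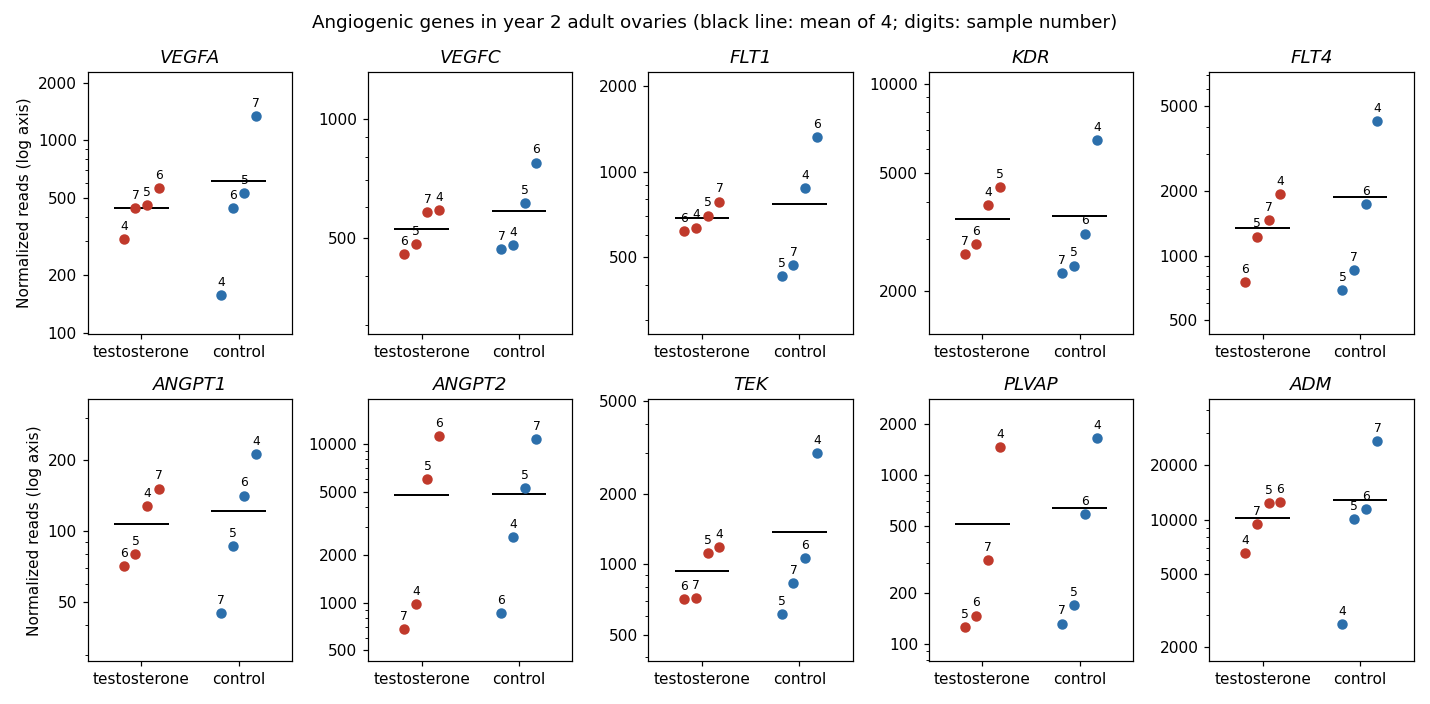
Normalized reads of the 10 genes in each year 2 adult ovary on log axes, testosterone left and control right; points are single libraries with their sample number, and the black line is the mean of 4. The groups overlap for each gene, control 4 is highest for KDR, FLT4, ANGPT1, TEK and PLVAP, and control 7 is highest for VEGFA and ADM.

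The endothelial markers were themselves uneven in the adults. Summed over 18 genes they ran from 33474 to 73893 in testosterone adults, with a median of 40707, and from 21386 to 147379 in control adults, with a median of 45084. The highest sum was that of control 4. Of single markers, CDH5 had 10979 in control 4. It had 7842, 7609 and 4828 in testosterone 4, control 6 and testosterone 7, the libraries with high OXT, and 1839 to 3618 in the rest. All 18 markers had negative log2 changes in both tables (median -0.47 and -0.62), and 0 passed. Both tables hold control 4, and the signs of 18 genes in the same libraries are not independent. With the mean of this list as a covariate in the joined fit, added after the data were seen, FLT4 was at 0.05 (SE 0.21), TEK at -0.13 (SE 0.22), KDR at 0.20 (SE 0.18) and PLVAP at 0.04 (SE 0.51). This fit differs from that of each table both in its libraries and in the covariate. The part of other cell types in these values was not tested.

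The 19 listed receptors and co-receptors had 5 positive and 14 negative log2 changes in each table, the 15 ligands 5 and 10 in the first and 3 and 12 in the second, and 0 passed with limma or DESeq2. Some related genes, named after their values were seen, were highest in control 4. PGF, a ligand of FLT1, had 791 in control 4 and 68.9 to 190.3 in the other 7 adults. EPAS1, the hypoxia-inducible factor of endothelium, had 25011 in control 4 and 2644 to 5552 in the others. HEY2, an arterial Notch target, had 2386 in control 4 and 32.9 to 312 in the others. TIE1, a receptor that works with TEK, had 6382 in control 4 and 1156 to 3807 in the others. Other related genes went the opposite way and were lowest in control 4. HIF1A had 2392 in control 4 and 3874 to 7948 in the others, and the co-receptor NRP1 had 4131 in control 4 and 4493 to 9242 in the others. PDGFRA, called by DESeq2 in the fetuses, was neither highest nor lowest in control 4. It had 5341, 13601, 11062 and 5552 in testosterone adults 4, 5, 6 and 7, against 5220.1, 7054, 5551 and 4928 in control adults 4, 5, 6 and 7. The groups overlapped, and its log2 change was 0.65 in the first table and 0.85 in the second, with a limma adjusted p of 1 in both. Of 20 hypoxia-induced genes, 10 had positive and 10 negative log2 changes in the first table (median -0.03), and 0 passed.

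The effect of testosterone was then compared between the ages, as the log2 change in the first adult table minus that in the fetal table, for 15222 genes. The difference passed for 0 of the 10 genes and for 0.00657% of all genes. For ADM it was 1.22 (SE 0.60, 95% interval -0.20 to 2.64, adjusted p = 0.999). For PLVAP it was -1.05 (SE 1.22). With the second adult table in place of the first, the differences were 0.93 for ADM and -1.67 for PLVAP, so the order of their sizes changed with the table. Over the alternatives the difference for ADM ran from 0.55 to 1.61 and its adjusted p from 0.587 to 1.

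Levels at the ages were set side by side in CPM, recovered reads scaled to the same library total. The fetal and adult tables were normalized separately, so no test was made. ADM, ANGPT2 and FLT4 were higher in all 8 adult libraries than in any of the 6 fetal ones. ADM ran from 80.3 to 1139 in adults (median 414), against 40.0 to 72.7 in fetuses (median 59.9). ANGPT2 ran from 25.8 to 453 in adults (median 145), against 8.34 to 12.0 in fetuses (median 9.18). FLT4 ran from 27.6 to 128 in adults (median 53.1), against 13.1 to 20.2 in fetuses (median 17.4). On this scale 5.58% of 15175 genes were higher in all adult libraries and 20.8% were lower in all of them.

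The other 7 genes overlapped between the ages. FLT1 had a median of 25.4 in adults and 56.9 in fetuses, and 1 adult library, control 6 at 48.7, exceeded the lowest fetal value of 46.0. PLVAP had a median of 9.31 in adults and 31.9 in fetuses, TEK 37.2 in adults and 60.6 in fetuses, and VEGFA 17.8 in adults and 25.7 in fetuses. ANGPT1 had a median of 4.06 in adults and 5.98 in fetuses. KDR had 115 in adults and 119 in fetuses, and VEGFC 20.6 in adults and 23.0 in fetuses.

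**Figure D5:**
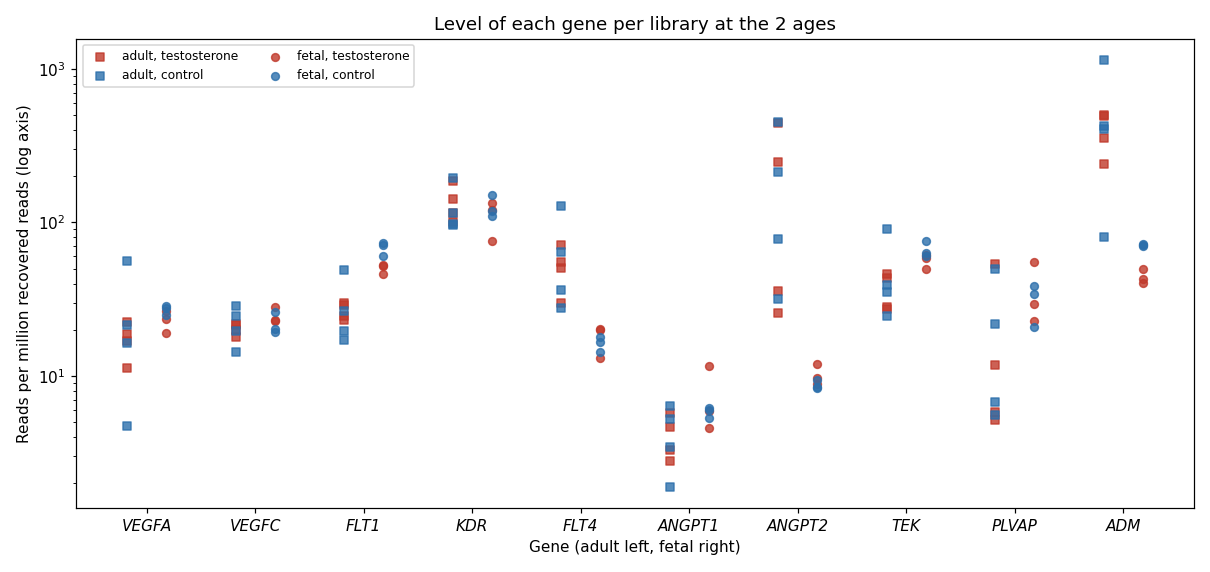
CPM (recovered reads scaled to the same library total) of each gene in each library on a log axis, adult (squares) left and fetal (circles) right, with testosterone in red and control in blue. ADM, ANGPT2 and FLT4 have each adult library above each fetal one, and the adult values of ANGPT2 and PLVAP spread over more than 10-fold.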

How the data were processed

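Trimmomatic 0.36, a read trimmer, and STAR 2.5.2b, an aligner, are named in the submitters' processing notes. How reads were counted and on which build is not given in the sources used here, so no coordinates or sequences are printed. The signal the authors deposited is a gene's reads after division by the library's size factor. The series text names DESeq2. The authors' own log2 change, p-value and its adjusted form stand beside it. All values (100%) came out whole within 0.01 once divided by what 1 read is worth, which gave 22577382 to 33417500 recovered reads per library. Control 6 was deeper in the second adult table, and that column was used when the 8 adult libraries were joined by median-of-ratios scaling over 15773 genes.

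The main test was limma 3.58.1 in R 4.3.3, two-sided and with the trend option, on log2 of the value plus 1. It was run in each table over genes whose mean reached 10, with Benjamini-Hochberg adjusted p under 0.05 over all genes. A log2 change on this scale understates that of low genes. The recovered reads were also tested with DESeq2 1.42.0 and with edgeR's quasi-likelihood test (4.0.16). The difference between ages combined both limma errors. The procedures were also run on simulated reads with planted changes and genes drawn independently. That setting lacks the differences between libraries described here. There were 15 gene lists, and the rule named from each the genes called by limma or DESeq2, or else the 2 of smallest p. Not all are printed. CALCRL, RAMP2, RAMP3, NRP1, NRP2, VEGFB, HIF1A, EPAS1, TIE1, FSHR and the adult PGF, HEY2 and PDGFRA values per library were chosen for their role or after their values were seen. The genes and lists were chosen with earlier results of these data known. Alternatives were no filter, quantile normalization, pseudocounts of 0.5 and 5, a threshold of 0.1, the sample number as a block, the joined adult libraries with a luteal covariate, and leaving out each library. An endothelial covariate was added after the data were seen.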

Additional observations from a re-analysis of the deposited data

How the results depend on the processing

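The number of the 10 genes called was 0 under every alternative in both adult tables and for the difference between ages. In the fetal table it was 0 under every alternative except DESeq2, which called 1, ADM. Over all fetal genes limma called 3 and DESeq2 262, while edgeR called 4 and 20 passed at a threshold of 0.1. Without each library in turn limma called 0 to 13.

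Many log2 changes of the genes that were not called turned sign. With the 8 adult libraries joined, VEGFA was at -0.12 and ANGPT2 at -0.37, and KDR at 0.067 against a negative value in the second table. The difference between ages for ANGPT2 was then -0.61. With the luteal covariate VEGFA was at -0.044 and KDR at 0.094. With the endothelial covariate VEGFA was at -0.35, FLT1 at 0.066, FLT4 at 0.053, ANGPT1 at 0.14, ANGPT2 at -0.60, PLVAP at 0.043, ADM at -0.19 and KDR at 0.20. With the libraries joined but without control 4, VEGFA was at -0.65, FLT1 at 0.087, FLT4 at 0.34, ANGPT1 at 0.31, ANGPT2 at -0.49, TEK at 0.15, PLVAP at 0.36, ADM at -0.56 and KDR at 0.39. In the first adult table KDR was at -0.088 with edgeR and -0.094 with DESeq2. In the second, VEGFA was at -0.40 and ADM at -0.27 with edgeR, and VEGFA at -0.39 and ADM at -0.26 with DESeq2. The edgeR interaction for FLT1 was -0.011. The cause was not tested.

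Without each library in turn, these ranges crossed 0. Fetal PLVAP ran from -0.18 to 0.47, KDR from -0.36 to 0.060 and ANGPT1 from -0.12 to 0.54. In the first adult table VEGFA ran from -0.19 to 0.69, FLT1 from -0.72 to 0.085, KDR from -0.28 to 0.42, FLT4 from -1.17 to 0.15, TEK from -0.88 to 0.26 and ADM from -0.11 to 0.95. In the second, VEGFA ran from -0.66 to 0.88, VEGFC from -0.27 to 0.10, FLT1 from -0.62 to 0.14, KDR from -0.46 to 0.29, ANGPT1 from -0.86 to 0.25, ANGPT2 from -0.54 to 1.53 and ADM from -0.63 to 1.03. The difference between ages ran from -0.32 to 0.49 for FLT1, -0.088 to 0.61 for KDR, -1.31 to 0.0090 for FLT4, -0.15 to 1.61 for ANGPT2 and -0.70 to 0.45 for TEK.

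Whether the sample numbers pair the samples cannot be told: the labels do not say, and correlations of so few libraries cannot decide it. Same-numbered fetuses had correlations of 0.13, 0.0093 and 0.40 between their deviations from the group means. In the first adult table the correlations were -0.15, 0.33 and -0.48. The control closest to a testosterone library carried its number for 1 of 3 in the fetal table and 1 of 3 in the first adult table. In the joined adult libraries this held for 0 of 4. With the replicate block 0 of the 10 genes were called, and 10 fetal genes in all. In the second table only sample numbers 6 and 7 occur in both groups. The block there took control 4 and testosterone 5 out of the comparison. On the remaining libraries it turned VEGFA to -0.62, KDR to 0.051, ANGPT1 to 0.37, ANGPT2 to -0.13 and ADM to -0.70. In the joined libraries with the block VEGFA was at -0.12, ANGPT2 at -0.37 and KDR at 0.067. With 3 libraries a group, adult log2 changes carried standard errors of 0.26 to 1.23, and a change has to exceed its error several times over to pass.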
